A study of Mus musculus with 10 samples.

Results

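Genes that write, read or maintain repressive chromatin marks were followed in neuronal nuclei of the mouse brain after loss of Mphosph8 or Morc2a. The 10 genes were taken by name from a list of histone H3 lysine 9 (H3K9) methyltransferases (Suv39h1, Suv39h2, Ehmt1, Ehmt2), heterochromatin protein 1 (HP1) genes (Cbx1, Cbx3, Cbx5) and DNA methylation genes (Dnmt1, Dnmt3a, Uhrf1), leaving out the HUSH complex and SETDB1. All 10 were matched by symbol to Ensembl gene IDs among the 54532 genes of the count tables, and all 10 were among the 18573 genes that passed the filter on low counts. The rule names the genes and uses no measured value.

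RNA with poly(A) tails was sequenced from nuclei that were sorted from brains of adult C57BL/6J mice with an antibody against NeuN, a protein of neuronal nuclei encoded by Rbfox3. The 5 control libraries lacked the Nestin-Cre transgene. Controls 1, 2 and 3 carried Mphosph8fl/fl alleles and controls 4 and 5 carried Morc2afl/fl alleles. The 3 Mphosph8 knockout libraries came from Mphosph8fl/fl mice with Nestin-Cre, and the 2 Morc2a knockout libraries from Morc2afl/fl mice with Nestin-Cre, so that every mouse in the series was homozygous for a floxed allele. MPHOSPH8 (MPP8) is the chromodomain subunit of the HUSH silencing complex, and MORC2A is an ATPase that works with HUSH. Nestin-Cre is active in precursors of neurons and glia. Since no control carried Nestin-Cre, the transgene and the deletion cannot be told apart. The series describes material from at least 2 brains per genotype without tying each library to its own brain, so that the p-values measure the spread between these libraries.

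The libraries held 6686038 to 10764555 counted reads. Counts covered whole genes, so that they do not test the removal of a single exon: Mphosph8 had 37.2, 36.0 and 18.8 CPM (read counts scaled to the size of the library, with TMM factors) in the 3 Mphosph8 knockouts against 32.2 to 49.0 in the controls, and Morc2a had 215 and 223 CPM in the Morc2a knockouts against 122 to 163 in the controls. The study states that mRNA without the floxed exon is subject to decay. It reports the loss of Mphosph8 and Morc2a by qRT-PCR and immunoblot of whole brains. It also shows qRT-PCR of both genes in sorted NeuN+ nuclei of controls and both knockouts (n = 2), as a figure without printed values. The difference between that report and these counts was not tested. Rbfox3 was present in every library at 150 to 304 CPM, and oligodendrocyte (Mbp, 303 to 610 CPM) and astrocyte (Slc1a2, 345 to 474 CPM) transcripts were found as well. All 7 neuronal markers were detected in every library. They summed to 3839 and 3274 CPM in the Morc2a knockouts, below the 4153 to 4851 CPM of the controls. Snap25 (1376 and 1381 against 1805 to 1996 CPM), Tubb3 and Nefl were below every control in both knockouts. Rbfox3, Syt1, Map2 and Elavl3 were not, and Map2 was at 664 and 517 against 394 to 590 CPM. The sum of the 6 inhibitory markers was also below every control in the Morc2a knockouts (1407 and 1147 against 1500 to 1890 CPM). So was that of the 5 oligodendrocyte markers (599 and 487 against 666 to 840 CPM). Of these markers Gad1, Sst, Vip and Mbp were below every control in both knockouts, and the others were not. The part of these differences in the Morc2a knockout values given for the 10 genes was not tested. Markers of cerebellar granule neurons summed to 521, 289 and 451 CPM in control 4 and in Mphosph8 knockouts 1 and 2, against at most 106 CPM in the other 7 libraries, and Mphosph8 knockout 2 also held the pituitary transcripts Pomc and Gh at 162 and 108 CPM. In bulk nuclei, fewer cells of a type and less RNA per cell cannot be told apart.

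In heterochromatin, methyl groups on H3K9 are bound by the chromodomains of HP1 proteins, which in turn recruit further methyltransferases, so that the mark can spread and persist. SUV39H1 and SUV39H2 deposit trimethylation mostly at pericentric repeats, whereas EHMT2 (G9a) and EHMT1 (GLP) form a heterodimer that places mono- and dimethylation in euchromatin. DNA methylation is copied after replication by DNMT1, which UHRF1 guides to hemimethylated sites, while DNMT3A adds methyl groups to unmethylated DNA and does so in neurons after birth, also outside CpG sites. MPP8 itself reads methylated H3K9.

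All 10 genes are protein-coding and lie on GRCm38 (GENCODE M21 models). Suv39h1 lies at chrX:8061171-8074760 on the minus strand, Suv39h2 at chr2:3455815-3475031 on the minus strand, Ehmt1 at chr2:24789928-24919614 on the minus strand and Ehmt2 at chr17:34898469-34914052 on the plus strand. The HP1 genes lie at chr11:96789127-96808640 (Cbx1, plus strand), chr6:51470360-51483704 (Cbx3, plus strand) and chr15:103191544-103239816 (Cbx5, minus strand). Dnmt1 lies at chr9:20907209-20959888 on the minus strand, Dnmt3a at chr12:3806007-3914443 on the plus strand and Uhrf1 at chr17:56303321-56323486 on the plus strand. The genes differed in how far their reads can be told from those of other genes. Of the 50-base stretches in the annotated transcripts, 15.4% for Uhrf1, 12.2% for Suv39h1, 8.67% for Cbx3 and 4.89% for Suv39h2 also occurred in transcripts of other genes, against less than 1% for each of the other 6. For Cbx3, 13 of the 16 genes sharing such stretches were pseudogenes, for Uhrf1 both were, and the 8 annotated pseudogenes named after Cbx3 were listed at 0 counts in every library. For Suv39h1 and Suv39h2 most belonged to overlapping genes on the opposite strand (Gm14820, with 0 to 10 counts a library, and Dclre1c, with 37 to 167), and the strand setting of the counting is not given in the sources used here.

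Each of the 10 genes had at least 1 annotated promoter window (RefSeq, GRCm38.p6, 250 bases before to 50 bases after a start) with 22 to 47 CG dinucleotides, the target of the DNA methylation enzymes, against a median of 7 over all 32851 windows of that length in the mouse table. That range takes the richest window of each gene, whereas the median takes every window. As many CG as the 22 of the Cbx1 window were found in 23.1% of all windows. The motif searched was CG, which reads the same on both strands. Of the 19 windows of the 10 genes, 1 held fewer than the median, a Dnmt1 window with 2. The stretches upstream of the first annotated base are shown for the gene with the highest level per kilobase (Ehmt2, chr17:34898224-34898468, plus strand), for the gene with the lowest (Uhrf1, chr17:56303087-56303320, plus strand) and for Cbx5 (chr15:103239853-103240102, minus strand), which starts 615 bases from the oppositely oriented gene Hnrnpa1. They are written 5′ to 3′ on the strand of the gene, with CG in capitals.
Ehmt2: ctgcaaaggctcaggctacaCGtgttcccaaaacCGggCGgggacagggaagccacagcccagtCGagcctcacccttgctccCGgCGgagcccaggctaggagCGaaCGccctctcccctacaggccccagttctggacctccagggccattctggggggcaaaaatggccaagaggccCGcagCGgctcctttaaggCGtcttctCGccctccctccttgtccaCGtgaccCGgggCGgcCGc
Uhrf1: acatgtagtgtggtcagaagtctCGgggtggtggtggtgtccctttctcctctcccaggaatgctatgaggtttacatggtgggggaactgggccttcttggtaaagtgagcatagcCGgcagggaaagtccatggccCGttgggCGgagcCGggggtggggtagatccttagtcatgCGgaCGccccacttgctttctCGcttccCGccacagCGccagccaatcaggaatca
Cbx5: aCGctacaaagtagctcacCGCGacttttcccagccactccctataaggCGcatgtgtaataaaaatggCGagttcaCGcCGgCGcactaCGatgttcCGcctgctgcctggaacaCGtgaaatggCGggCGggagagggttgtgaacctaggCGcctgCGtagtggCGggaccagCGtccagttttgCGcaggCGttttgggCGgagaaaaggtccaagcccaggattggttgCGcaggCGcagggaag
The Ehmt2 stretch held 16 CG in 245 bases, the Uhrf1 stretch 10 in 234 and the Cbx5 stretch 22 in 250. As many CG as in the whole Ehmt2, Uhrf1 and Cbx5 windows (28, 12 and 29) were found in 14.2%, 39.6% and 12.9% of all windows. Ehmt2 and Uhrf1 each had another window that was richer, with 40 and 33 CG, as many as which were found in 3.9% and 8.6% of all windows, and Cbx5 had another window with 8. No methylation or binding was measured at these promoters.

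Across all 10 libraries the genes spanned more than 2 orders of magnitude in level per kilobase of exonic length. Ehmt2 was the highest at 31.6 ± 4.27 CPM per kilobase (SD, n = 10), followed by Cbx5 at 21.2 ± 3.60, Dnmt3a at 20.8 ± 1.68, Ehmt1 at 17.9 ± 2.57 and Dnmt1 at 15.1 ± 2.44. Cbx1 followed at 5.71 ± 1.32 CPM per kilobase, Suv39h1 at 4.44 ± 1.38, Suv39h2 at 1.67 ± 0.625, Cbx3 at 0.609 ± 0.219 and Uhrf1 at 0.284 ± 0.379. The ranges over libraries overlapped between all neighbours in this order except Dnmt1 and Cbx1, between which the levels split into 5 high and 5 low genes. Ehmt2 was above Cbx5, Suv39h1 above Suv39h2 and Suv39h2 above Cbx3 in all 10 libraries, whereas Cbx5 was above Dnmt3a in only 7. With the length of the longest transcript in place of the exonic length, Ehmt2 stayed first and Dnmt3a moved to the second place, before Ehmt1 and Cbx5, and the places from Dnmt1 down were kept.

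**Figure D1:**
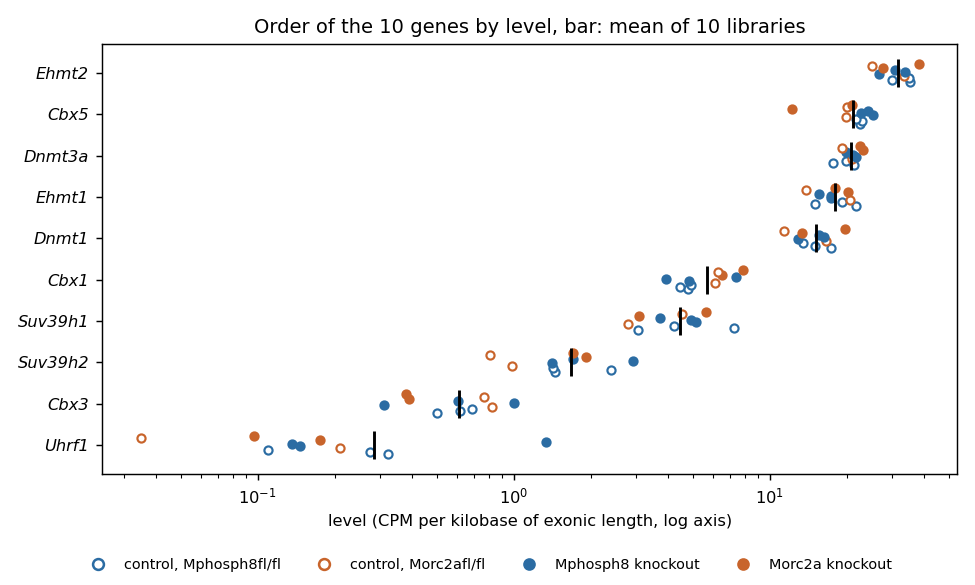
Level of each of the 10 genes in each of the 10 libraries, in CPM per kilobase of exonic length on a log axis, with open circles for controls, filled circles for knockouts and the colour for the floxed line; the vertical bar is the mean of 10 libraries. The genes from Ehmt2 (mean 31.6) to Dnmt1 (15.1) lie apart from those from Cbx1 (5.71) to Uhrf1 (0.284).

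The genes also differed in how much they varied. Dnmt3a was the steadiest, with a coefficient of variation of 8.09% over the 10 libraries, of which counting error alone would give 1.75%. Ehmt2, Ehmt1, Dnmt1 and Cbx5 varied by 13.5%, 14.3%, 16.1% and 17.0%, and Cbx1, Suv39h1, Cbx3 and Suv39h2 by 23.1%, 31.0%, 36.0% and 37.4%. Uhrf1 varied by 133%, from 1 to 55 counts a library. Counting error came to 6.70% for Suv39h1, well below its spread between libraries, but to 17.0% for Cbx3 and 29.4% for Uhrf1.

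**Figure D2:**
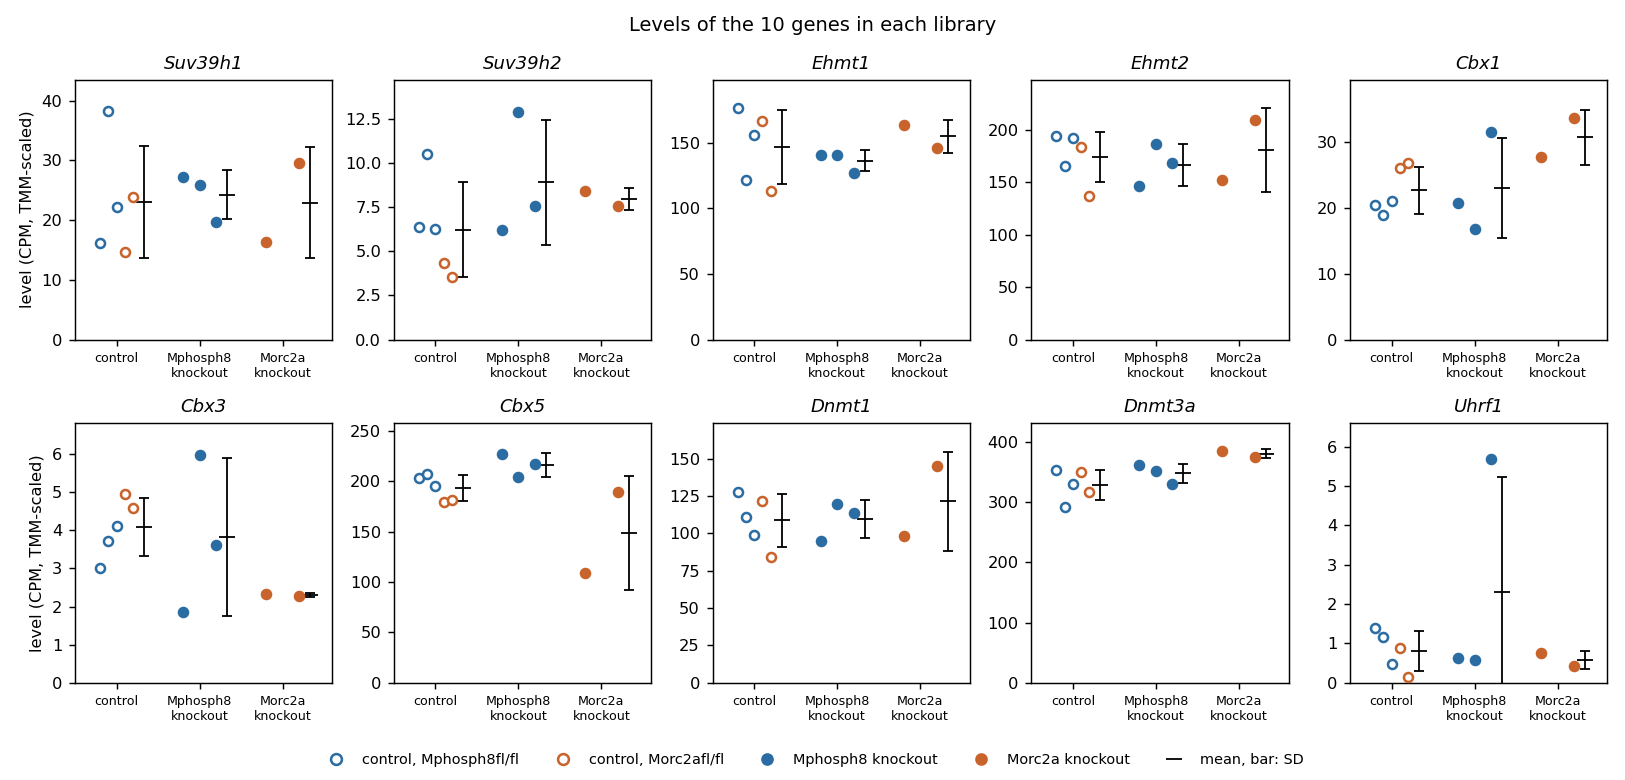
Level (TMM-scaled CPM) of each gene in each library, by group, with open circles for controls, filled circles for knockouts and the colour for the floxed line; the bar beside each group is the mean with SD (n = 5, 3 and 2), and every vertical axis starts at 0. In the Morc2a knockouts, Dnmt3a (386 and 376 CPM) and Cbx1 (27.8 and 33.7) lie above every control and Cbx3 (2.34 and 2.27) below every control, and Uhrf1 reaches 5.69 CPM in Mphosph8 knockout 3.

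None of the 10 genes passed the test in either knockout. For a call, edgeR's quasi-likelihood test over 18573 genes had to give an adjusted p under 0.05 together with a change of more than 2-fold. In the Mphosph8 knockout against all controls 0 of 10 genes were called, against 0.0969% of all genes tested, and 0 of 10 had an unadjusted p below 0.05, against 5.67% of all genes. In the Morc2a knockout against all controls 0 of 10 were called, against 0.0592% of all genes, and 1 of 10 (Cbx5) had an unadjusted p below 0.05, against 10.7% of all genes. DESeq2 and limma-voom called 0 of 10 in both comparisons as well. The comparisons share the 5 control libraries. The median log2 difference of the 10 genes was 0.05 in the Mphosph8 knockout and 0.06 in the Morc2a knockout, where the median of all genes was -0.01 in each, and the median absolute log2 difference was 0.09 and 0.28, against 0.21 and 0.30 over all genes. In each of these comparisons, the 95% interval of 7 of the 10 genes lay within a 2-fold change in either direction. The 3 others were the least abundant genes, Suv39h2, Cbx3 and Uhrf1. Their intervals reached beyond a 2-fold change, so that a change of that size was not excluded at this depth and number of libraries.

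**Figure D3:**
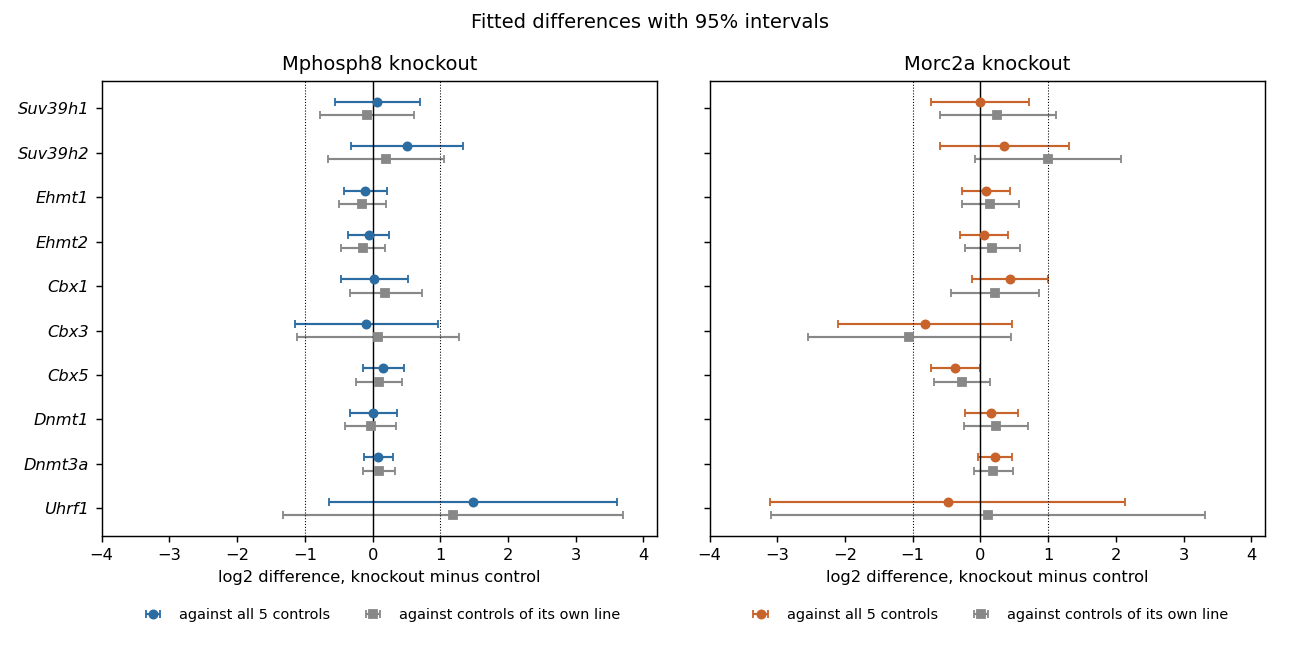
Fitted log2 difference of each gene in the Mphosph8 knockout (left) and Morc2a knockout (right), against all 5 controls (coloured circles) and against the controls of the same floxed line (grey squares), with 95% intervals; dotted lines mark a 2-fold change. All intervals include 0 except that of Cbx5 in the Morc2a knockout against all controls (-0.73 to -0.01), and those of Uhrf1 and Cbx3 are the widest.

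Suv39h1 varied widely among the controls. It was at 16.2, 38.3, 22.2, 14.7 and 23.9 CPM in controls 1 to 5, at 27.2, 25.9 and 19.6 CPM in the Mphosph8 knockouts and at 16.3 and 29.5 CPM in the Morc2a knockouts. All knockout values fell within the range of the controls. The log2 difference from all controls was 0.07 (95% interval -0.56 to 0.70) in the Mphosph8 knockout and -0.01 (-0.73 to 0.71) in the Morc2a knockout.

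Suv39h2, the paralog best known from the germline, was lower, at 6.39, 10.5, 6.27, 4.35 and 3.56 CPM in controls 1 to 5. It reached 6.21, 12.9 and 7.56 CPM in the Mphosph8 knockouts and 8.41 and 7.54 CPM in the Morc2a knockouts. The controls of the Morc2a line were below the controls of the Mphosph8 line without overlap, and both Morc2a knockouts were above their own controls but inside the range of the Mphosph8 line. Accordingly, the log2 difference in the Morc2a knockout was 0.35 (-0.60 to 1.30) against all controls and 1.00 (-0.08 to 2.08) against its own line, with adjusted p = 0.844 and 0.586 (edgeR). Between the control lines it was -0.96 (-1.97 to 0.05, adjusted p = 0.561, edgeR). In the Mphosph8 knockout the difference was 0.51 (-0.32 to 1.34) against all controls and 0.20 (-0.66 to 1.05) against its own line. Suv39h1 made up 75.3% ± 6.09 (SD, n = 5) of the summed level per kilobase of this pair in the controls, 69.9% ± 8.01 (n = 3) in the Mphosph8 knockouts and 69.2% ± 10.5 (n = 2) in the Morc2a knockouts, ranges that overlapped.

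Ehmt1 and Ehmt2, which encode the subunits of the G9a/GLP heterodimer, were among the abundant genes and stayed within the spread of the controls. Ehmt1 was at 177, 122, 156, 167 and 113 CPM in controls 1 to 5, at 141, 141 and 127 CPM in the Mphosph8 knockouts and at 164 and 146 CPM in the Morc2a knockouts. Ehmt2 was at 194, 165, 192, 183 and 137 CPM in the controls, at 146, 186 and 168 CPM in the Mphosph8 knockouts and at 152 and 209 CPM in the Morc2a knockouts. The only knockout value outside the control range was the 209 CPM of Ehmt2 in Morc2a knockout 2. The log2 differences of Ehmt1 were -0.11 (-0.42 to 0.21) and 0.08 (-0.28 to 0.43) in the Mphosph8 and Morc2a knockouts, and those of Ehmt2 were -0.06 (-0.37 to 0.24) and 0.05 (-0.30 to 0.40). The share of Ehmt2 in the summed level per kilobase of the pair was 63.8% ± 2.05 in the controls (SD, n = 5), 64.3% ± 3.23 in the Mphosph8 knockouts (n = 3) and 62.9% ± 7.26 in the Morc2a knockouts (n = 2).

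The HP1 genes had a median absolute log2 difference of 0.44 in the Morc2a knockout against all controls, beside 0.06 for the 4 H3K9 methyltransferases and 0.21 for the 3 DNA methylation genes, and its sign differed between Cbx1 and the other HP1 genes. Against the controls of its own line the values were 0.27, 0.21 and 0.19, and between the control lines, with no deletion, they were 0.40, 0.30 and 0.12. The median over all genes tested was 0.30 against all controls, 0.32 against the own line and 0.30 between the control lines. Cbx5 (HP1 alpha), the form concentrated at pericentric heterochromatin, was at 203, 207, 195, 179 and 181 CPM in controls 1 to 5 and at 227, 204 and 217 CPM in the Mphosph8 knockouts. In the Morc2a knockouts it was at 109 and 189 CPM. Morc2a knockout 1 was the lowest of all 10 libraries, whereas Morc2a knockout 2 lay inside the control range. The log2 difference was -0.37 ± 0.17 (SE, 95% interval -0.73 to -0.01, unadjusted p = 0.0431, adjusted p = 0.446, edgeR) against all controls and -0.27 (-0.68 to 0.14) against the 2 controls of its own line. A single library decided this value: the difference was -0.82 without Morc2a knockout 2 and -0.03 without Morc2a knockout 1. The Mphosph8 knockout gave 0.16 (-0.14 to 0.47).

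Cbx1 (HP1 beta) was at 20.4, 19.0, 21.0, 26.1 and 26.9 CPM in controls 1 to 5, so that the controls of the Morc2a line were above those of the Mphosph8 line without overlap. It was at 20.7, 16.8 and 31.6 CPM in the Mphosph8 knockouts and at 27.8 and 33.7 CPM in the Morc2a knockouts. Both Morc2a knockouts were above every control, but the gap to control 5 was smaller than that between the knockouts. The log2 difference in the Morc2a knockout was 0.44 (-0.12 to 1.00, adjusted p = 0.594, edgeR) against all controls and 0.21 (-0.44 to 0.87) against its own line, and that between the control lines was 0.40 (-0.20 to 0.99). In the Mphosph8 knockout it was 0.02 (-0.47 to 0.52) against all controls, and it was -0.27 without Mphosph8 knockout 3 and 0.54 without the 3 libraries rich in granule cell markers, 2 of which are Mphosph8 knockouts.

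Cbx3 (HP1 gamma), a form found in euchromatin and in the bodies of active genes, was counted with 18 to 62 reads a library. It was at 3.01, 3.71, 4.12, 4.95 and 4.60 CPM in controls 1 to 5, at 1.86, 5.99 and 3.62 CPM in the Mphosph8 knockouts and at 2.34 and 2.27 CPM in the Morc2a knockouts. The Morc2a knockouts were below every control with 22 counts each, and the Mphosph8 knockouts spread over more than the range of the controls. The log2 difference in the Morc2a knockout was -0.82 (-2.10 to 0.46, adjusted p = 0.690, edgeR), and -1.05 (-2.54 to 0.45) against its own line. For the Mphosph8 knockout it was -0.09 (-1.15 to 0.97). The level of Cbx3 is the level of reads assigned to it, since 8.67% of its 50-base stretches are shared with other genes, and the part of such reads in these values was not tested.

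Per kilobase of exonic length, Cbx5 made up most of the level assigned to the HP1 genes, with the limit given above for reads of Cbx3. Its share of the summed level was 78.1% ± 3.82 (SD, n = 5) in the controls, 80.1% ± 4.36 (n = 3) in the Mphosph8 knockouts and 67.8% ± 5.61 (n = 2) in the Morc2a knockouts, and that of Cbx1 was 19.4% ± 3.38, 17.8% ± 4.67 and 30.6% ± 5.08. Cbx3 held 2.49% ± 0.506 in the controls, 2.18% ± 1.32 in the Mphosph8 knockouts and 1.67% ± 0.534 in the Morc2a knockouts. The share of Cbx5 in the Morc2a knockouts (63.8% and 71.7%) was below that in every other library, the lowest of which were the controls of the Morc2a line at 74.0% and 74.1%. The controls of the Mphosph8 line were at 79.5% to 81.9%, so that the control lines differed in this share as well. With the length of the longest transcript the shares of Cbx5 were 66.8% ± 4.94 in the controls and 54.4% ± 6.40 in the Morc2a knockouts. No test was made of these shares.

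**Figure D4:**
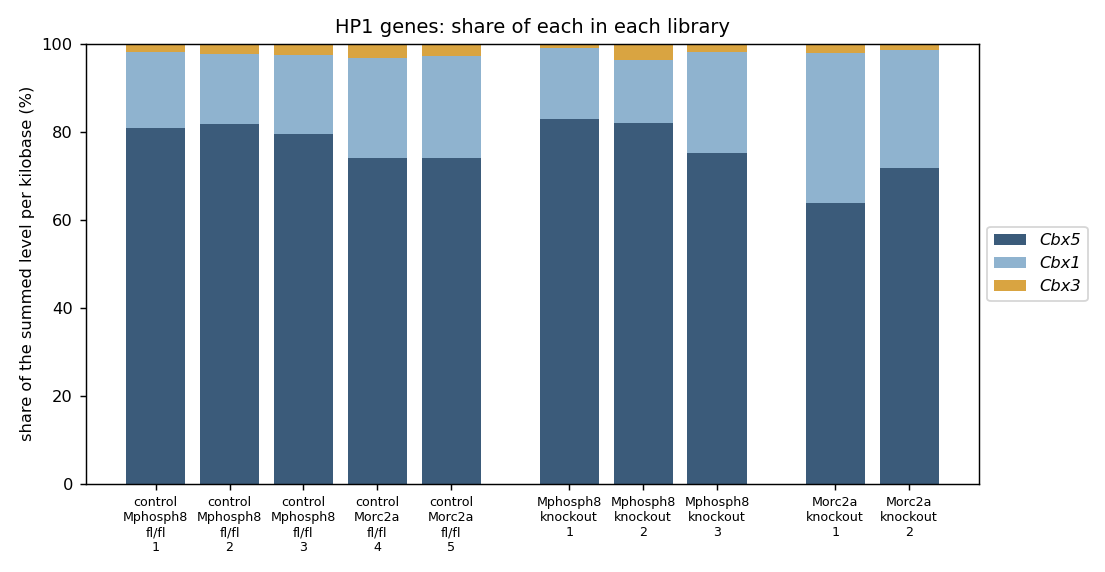
Share of Cbx5, Cbx1 and Cbx3 in their summed level per kilobase of exonic length in each of the 10 libraries, as stacked bars that sum to 100%, by group and replicate. Cbx5 is lowest in the Morc2a knockouts (63.8% and 71.7%) and next in the Morc2afl/fl controls (74.0% and 74.1%).

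Cbx3 and Cbx5 each start close to a gene of the opposite direction that encodes an RNA-binding hnRNP protein. Hnrnpa2b1, whose start is 465 bases from that of Cbx3, was at 586 to 657 CPM in the controls, 579 to 656 CPM in the Mphosph8 knockouts and 595 and 726 CPM in the Morc2a knockouts. Its log2 difference was -0.06 (-0.27 to 0.15) in the Mphosph8 knockout and 0.06 (-0.18 to 0.30) in the Morc2a knockout, beside -0.09 and -0.82 for Cbx3. Hnrnpa1, whose start is 615 bases from that of Cbx5, was at 19.2, 21.3, 22.9, 24.9 and 19.2 CPM in controls 1 to 5, at 17.2, 33.8 and 35.3 CPM in the Mphosph8 knockouts and at 31.5 and 44.1 CPM in the Morc2a knockouts. It was above every control in the Morc2a knockouts, where Cbx5 was not, with a log2 difference of 0.81 (0.25 to 1.38, unadjusted p = 0.00722, adjusted p = 0.270, edgeR). Hnrnpa1 shared 28.2% of its 50-base stretches with other genes, 20 of them pseudogenes.

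Dnmt1, the maintenance methyltransferase, was abundant in these nuclei and its groups overlapped. It was at 128, 111, 99.3, 122 and 84.2 CPM in controls 1 to 5, at 95.3, 120 and 114 CPM in the Mphosph8 knockouts and at 98.0 and 145 CPM in the Morc2a knockouts. Only Morc2a knockout 2 exceeded the controls. The log2 difference was 0.01 (-0.33 to 0.36) in the Mphosph8 knockout and 0.16 (-0.23 to 0.55) in the Morc2a knockout.

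Dnmt3a, the de novo methyltransferase of neurons, had the most reads of the 10 genes (2135 to 3652 a library) and the narrowest intervals. It was at 354, 292, 331, 350 and 317 CPM in controls 1 to 5, at 362, 353 and 331 CPM in the Mphosph8 knockouts and at 386 and 376 CPM in the Morc2a knockouts. Both Morc2a knockouts were above every other library. The log2 difference in the Morc2a knockout was 0.21 ± 0.12 (SE, 95% interval -0.03 to 0.46, unadjusted p = 0.0862, adjusted p = 0.546, edgeR), which is a fold of 1.16 (0.977 to 1.37), and it was 0.19 (-0.10 to 0.48) against its own line. The Mphosph8 knockout gave 0.08 (-0.13 to 0.30), a fold of 1.06 (0.913 to 1.23). The share of Dnmt3a in the summed level per kilobase of Dnmt1 and Dnmt3a was 57.4% ± 3.56 in the controls (SD, n = 5), 58.5% ± 3.67 in the Mphosph8 knockouts (n = 3) and 58.6% ± 7.11 in the Morc2a knockouts (n = 2).

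Uhrf1, the guide of DNMT1 at replication forks and otherwise a gene of dividing cells, was near the limit of detection. It had 11, 12, 5, 9 and 1 counts in controls 1 to 5, 7 and 4 counts in the Morc2a knockouts and 6, 6 and 55 counts in the Mphosph8 knockouts, and 1 library, Mphosph8 knockout 3, thus held 55 of its 116 counts. The log2 difference in the Mphosph8 knockout was 1.48 (-0.65 to 3.61, adjusted p = 0.967, edgeR) and changed to -0.43 without that library. In the Morc2a knockout it was -0.48 (-3.11 to 2.14). In Mphosph8 knockout 3, Mki67 and Pcna of the dividing-cell markers were also at their highest of the 10 libraries, at 13.6 and 21.7 CPM. The summed level of the 11 dividing-cell markers was 82.0 CPM there, within the 60.1 to 88.5 CPM of the controls, and Top2a and Mcm3 were at 0, while the other knockouts had sums of 58.3 to 78.7 CPM. The part of dividing cells in the Uhrf1 value was not tested.

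The groups did not overlap for 3 of the 10 genes in the Morc2a knockout against all controls, against 15.4% of all genes tested. Dnmt3a and Cbx1 were above every control, as were 7.59% of all genes, and Cbx3 was below every control, as were 7.8% of all genes. In the Mphosph8 knockout 0 of 10 were separated from the controls, against 4.57% of all genes. Against the controls of its own line, 0 of 10 genes were called in the Mphosph8 knockout and 0 of 10 in the Morc2a knockout, against 0.0538% of all genes in each, and 0 of 10 in each had an unadjusted p below 0.05, against 5.54% and 9.08% of all genes. DESeq2 and limma-voom called 0 of 10 in both. The smallest adjusted p among the 10 genes was 0.989 in the Mphosph8 knockout and 0.586 (Suv39h2) in the Morc2a knockout (edgeR).

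The control lines were compared as a measure of how far libraries without any deletion lay apart. Between the controls of the Morc2a line and those of the Mphosph8 line 0 of 10 genes were called by edgeR, DESeq2 or limma-voom, against 0.129% of all genes in edgeR, and 0 of 10 had an unadjusted p below 0.05, against 9.21% of all genes. The libraries of the control lines did not overlap for 4 of 10 genes, against 29.2% of all genes: for Suv39h2 and Cbx5, which were lower in the Morc2a line, and for Cbx1 and Cbx3, which were higher. Their log2 differences between the lines were -0.96, -0.17, 0.40 and 0.40. The median absolute log2 difference of the 10 genes was 0.30 between the control lines, beside 0.28 in the Morc2a knockout and 0.09 in the Mphosph8 knockout against all controls. Over all genes tested these medians were 0.30, 0.30 and 0.21. The comparisons differ in size, with 2 against 3, 2 against 5 and 3 against 5 libraries.

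The effect of the knockout in 1 line was then tested against that in the other. The difference between the effects passed the threshold for 0 of 10 genes and for 0% of all genes in edgeR, and for 0 of 10 in DESeq2 and limma-voom, with 0 of 10 at an unadjusted p below 0.05 in edgeR, against 7.95% of all genes. The smallest p was that of Cbx5, whose log2 difference was larger by 0.37 (-0.16 to 0.90) in the Mphosph8 line than in the Morc2a line (unadjusted p = 0.164, adjusted p = 0.753, edgeR). For Cbx3 the value was 1.13 (-0.79 to 3.04), and for Dnmt3a -0.09 (-0.47 to 0.28).

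The companion genes, taken from lists of related factors, were not called either. Of 47 companion genes in 5 lists, 45 passed the filter, and 0 of 45 were called in the Mphosph8 knockout and 0 of 45 in the Morc2a knockout against all controls. At an unadjusted p below 0.05 there were 1 higher and 1 lower gene in the Mphosph8 knockout and 4 higher and 2 lower genes in the Morc2a knockout, 2 and 6 of 45, where the shares of all genes were 5.67% and 10.7%. The median log2 difference of the 45 genes was -0.13 and 0.06. In each list the gene with the largest difference was a gene of few reads, except among the methyl-CpG readers. Among the other H3K9 methyltransferases and G9a/GLP partners (8 tested) this was Mecom, with 1 to 12 counts in the controls and 0, 6 and 3 in the Mphosph8 knockouts (log2 difference -1.13, -4.16 to 1.90). Among the H3K9 demethylases (10 tested) it was Kdm4d, with 0 to 20 counts in the controls and 11 and 19 in the Morc2a knockouts (1.25, -1.78 to 4.27).

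Among the HP1 partners and heterochromatin maintenance factors (11 tested) the gene with the largest difference was Chaf1b, a subunit of the histone chaperone CAF-1, with 13, 9, 4, 0 and 15 counts in controls 1 to 5 and 0 in both Morc2a knockouts. Control 4 and 2 of the Mphosph8 knockouts were at 0 as well, so that a count of 0 was not particular to the Morc2a knockout. Among the DNA methylation writers and erasers (8 tested) it was the cytidine deaminase gene Apobec1, with 0 to 7 counts in the controls, 0, 1 and 0 in the Mphosph8 knockouts (-3.00, -6.83 to 0.83) and 21 and 15 in the Morc2a knockouts (2.36, -0.83 to 5.55). Among the methyl-CpG readers (8 tested) it was the glycosylase gene Mbd4, at 20.2 to 28.3 CPM in the controls and 26.4, 9.57 and 10.5 CPM in the Mphosph8 knockouts (-0.58, -1.23 to 0.07).

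The companion genes at an unadjusted p below 0.05, which were chosen for mention after their values were seen, are given with their levels, although none was called and their number was near the share of all genes. Left out here is 1 gene of the HP1 partner list that was lower in the Morc2a knockout. Trim28, which encodes the corepressor KAP1 that binds HP1, was at 290 to 342 CPM in the controls and at 381 and 428 CPM in the Morc2a knockouts, with a log2 difference of 0.34 (0.05 to 0.63, adjusted p = 0.385, edgeR). Uhrf2, the paralog of Uhrf1, was at 123 to 156 CPM in the controls and at 161 and 208 CPM in the Morc2a knockouts, with a log2 difference of 0.37 (0.05 to 0.68), and was thus present at levels far above those of Uhrf1. Zfp644, a zinc finger partner of G9a, was at 56.9 to 66.2 CPM in the controls and at 79.5 and 82.0 CPM in the Morc2a knockouts (0.38, 0.06 to 0.70). Zbtb38, a reader of methylated DNA, was at 68.6 to 96.5 CPM in the controls and at 57.0 and 57.9 CPM in the Morc2a knockouts (-0.46, -0.84 to -0.09). All of these lay outside the range of the controls. Of the 45 companion genes tested, 4 were above every control in the Morc2a knockout and 1 was below. The shares of all genes were 7.59% and 7.8%.

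Mbd1, another methyl-CpG reader, was at 98.8, 101, 103, 98.3 and 139 CPM in controls 1 to 5, at 89.0, 84.0 and 86.9 CPM in the Mphosph8 knockouts and at 134 and 145 CPM in the Morc2a knockouts. Its log2 difference was -0.32 (-0.61 to -0.02, adjusted p = 0.872) in the Mphosph8 knockout and 0.38 (0.05 to 0.70, adjusted p = 0.391) in the Morc2a knockout (edgeR). Control 5, of the Morc2a line, was at the level of the Morc2a knockouts. Zbtb4, also a reader of methylated DNA, was at 104 to 165 CPM in the controls and at 185, 168 and 163 CPM in the Mphosph8 knockouts (0.31, 0.01 to 0.62, adjusted p = 0.876, edgeR).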

How the data were processed

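Poly(A) RNA of NeuN+ brain nuclei was sequenced. Per the labels and the study's methods, the authors trimmed reads with Trim Galore 0.5.0, removed reads of abundant (ribosomal, mitochondrial) sequences with Bowtie2 2.3.4.1, aligned to GRCm38 with STAR and deposited raw counts per gene from featureCounts (Subread 1.6.2); strand and multi-mapping settings are not given in the sources used here. Groups came from the labels. Here, counts were fitted with edgeR 4.0.16 (R 4.3.3; TMM, filterByExpr, quasi-likelihood test, Benjamini-Hochberg over 18573 genes), with 3 group means for comparisons against all controls and 4 (controls split by floxed line) for the others; adjusted p-values are from edgeR, and no set test was made. Alternatives were DESeq2 1.42.0, limma-voom 3.58.1, RLE scaling, other filters, pairs of groups alone, a replicate block and each library left out. The code was tested on simulated data. Members, lists and tests were chosen with earlier results of these data known. Named are all members, the targeted genes, Rbfox3, the divergent neighbours, in each companion list the genes called or else the gene with the largest log2 difference, and pseudogenes named after members; companion genes at an unadjusted p below 0.05 were added after their values were seen. Exonic lengths and 50-base words came from GENCODE M21. Of 54532 IDs, 54495 matched. Intervals cover the spread between libraries as fitted.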

Additional observations from a re-analysis of the deposited data

How the results depend on the processing

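In all 6 comparisons, 0 of 10 members were called under every alternative run (other scaling, filters, tests, no minimum fold, groups fitted alone, replicate block, each library left out and, chosen after the data were seen, without the 3 libraries rich in granule cell markers). Uhrf1 was not tested with at least 10 counts required in every library. The smallest adjusted p in the 4 comparisons of a knockout with controls was 0.187, for Cbx5 in the Morc2a knockout against all controls without Morc2a knockout 2. None of the 40 log2 differences was called, 22 of them (up to 1.48, for Uhrf1) changed sign under an alternative, and the cause was not tested.

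Against all controls, leaving out 1 library at a time gave, in the Mphosph8 knockout, -0.05 to 0.33 for Suv39h1, -0.14 to 0.03 for Ehmt2, -0.27 to 0.21 for Cbx1, -0.56 to 0.24 for Cbx3, -0.06 to 0.11 for Dnmt1 and -0.43 to 1.94 for Uhrf1. In the Morc2a knockout it gave -0.51 to 0.36 for Suv39h1, -0.01 to 0.16 for Ehmt1, -0.20 to 0.26 for Ehmt2 and -0.16 to 0.41 for Dnmt1. Against the own line, the Mphosph8 knockout gave -0.32 to 0.33 for Suv39h1, -0.16 to 0.49 for Suv39h2, -0.10 to 0.38 for Cbx1, -0.39 to 0.41 for Cbx3, -0.11 to 0.07 for Dnmt1 and -0.72 to 1.65 for Uhrf1, and the Morc2a knockout gave -0.24 to 0.62 for Suv39h1, -0.12 to 0.45 for Ehmt1, -0.08 to 0.39 for Ehmt2, -0.72 to 0.07 for Cbx5, -0.08 to 0.52 for Dnmt1 and -0.62 to 1.86 for Uhrf1. Where an arm was left with 1 library, it was assumed to vary like the others. Without the granule-rich libraries Suv39h1 was at -0.36 and, against the own lines, Suv39h2 at -0.03 and Dnmt1 at 0.03 in the Mphosph8 knockout and Suv39h1 at -0.07 in the Morc2a knockout. With limma-voom Cbx1 was at -0.01 and, against its own line, Cbx3 at -0.06 in the Mphosph8 knockout, and Suv39h1 was at 0.01 in the Morc2a knockout (0.00 over all genes with at least 1 count).

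With the replicate number as a block, Cbx3 was at 0.00 and Dnmt1 at -0.04 in the Mphosph8 knockout and Ehmt2 at -0.02 in the Morc2a knockout, and no call changed. Residuals of same-numbered libraries of different groups correlated at -0.0275 to 0.0428, against -0.0552 to 0.0406 for other numbers. The numbers set Morc2a knockouts 1 and 2 beside controls 1 and 2 of the Mphosph8 line, whereas controls 4 and 5 are those of their own line. Neither the block nor these correlations can therefore test a pairing of littermates in the Morc2a line.

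Over all genes, edgeR called 18 in the Mphosph8 and 11 in the Morc2a knockout against all controls, and 1 to 87 and 6 to 98 under the alternatives that keep all libraries or drop the granule-rich ones. Depth limits Cbx3 (18 to 62 counts a library) and Uhrf1 (1 to 55), where counting error alone gives coefficients of variation of 17.0% and 29.4%, but both varied more than that between libraries.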
